A study of Macaca mulatta with 18 samples.

Results

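Expression in the striatum (STR) was compared between rhesus monkeys of Chinese origin and rhesus monkeys of Indian origin, across all genes that the authors' table lists as tested and expressed. Members were the genes with status OK in that table and 1 or more FPKM (sequenced fragments scaled for transcript length and library size) in at least 1 origin, which gave 15081 of 30245 genes. Post-mortem striatum came from 3 monkeys of each origin, fed the same stock diet at 1 primate centre. Ages were 10.5, 11 and 11.5 years in the Chinese-origin group and 7.5, 15 and 16 years in the Indian-origin group. The Indian-origin monkeys had been born at the centre, whereas the Chinese-origin monkeys were obtained as young adults, so origin and early history cannot be told apart. The same 6 monkeys also gave prefrontal cortex (PFC) and cerebellum (CER), for which the values are set beside those of striatum only where they bear on it. The deposited table holds 1 FPKM per gene and origin, pooled by the authors over the 3 monkeys. The table gives neither the spread between monkeys nor the depth of the libraries, so no test was possible, and every difference below is a size with no replicate check.

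The striatum is the input nucleus of the basal ganglia. Most of its neurons are medium spiny neurons, which release GABA, receive glutamate from the cortex and dopamine from the midbrain, and use the phosphoprotein DARPP-32 (PPP1R1B) to join both signals. Those that project directly to the output nuclei carry the dopamine receptor DRD1 and the peptide precursor TAC1, and those of the indirect path carry DRD2, the adenosine receptor ADORA2A and the enkephalin precursor PENK. Cortical neurons that release glutamate carry SLC17A7 and have their cell bodies outside the striatum, and the RNA of a striatal sample would normally hold little of their transcripts. SLC17A7 is not particular to the cortex, and was at 169 and 145 FPKM in Chinese-origin and Indian-origin CER. Bulk RNA cannot tell fewer cells of a type from less RNA per cell.

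The striatal label was borne out by these markers in both origins. PPP1R1B had an authors' pooled FPKM of 1165 in Chinese-origin striatum and of 1022 in Indian-origin striatum, beside 117 and 110 in PFC. ADORA2A was at 175 and 168 FPKM in striatum and at 4.9999 and 4.64 in PFC. DRD2 was at 89.8 and 83.7 FPKM in striatum and at 2.88 and 2.69 in PFC. The table gives these 3 genes the status FAIL, so they are not members and enter no count.

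Across all members the ratio of the origins was not centred on 1. Of the 15081 members, 799 were listed at 0 in 1 origin and have no ratio. Of these, 591 bear names of small RNA classes and 192 have no symbol. Over the other 14282 the median log2 ratio of Chinese-origin over Indian-origin FPKM was 0.31, a 1.24-fold higher value, and 87.7% of genes had a ratio above 1. The median was 0.20 in PFC and 0.10 in CER, each within its own table. Ratios below are given relative to the striatal median, as the log2 ratio minus 0.31, unless called unadjusted. A gene counts as higher or lower when it lies 1.5-fold or more from the median (0.58 on the log2 scale). By this rule 938 genes (6.57%) were higher and 577 (4.04%) were lower in Chinese-origin striatum. At 2-fold these counts were 350 (2.45%) and 279 (1.95%). The 11308 members with a symbol other than that of a small RNA included 604 higher and 241 lower genes, the 662 small RNAs 151 and 165, and the 2312 genes with no symbol 183 and 171.

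The shift was not the same at all levels of expression. In the lowest of 8 equal classes of mean FPKM, from 0.557 to 2.21, the median unadjusted log2 ratio was 0.45, and in the highest class, from 74.9 FPKM upward, it was 0.18. Genes counted as higher made up 21.7% of the lowest class and 3.08% of the highest. Genes counted as lower made up 9.69% and 4.26% of these classes. Counts of highly expressed and of weakly expressed groups thus start from different backgrounds. Where a striatal list count below has no share beside it, the shares over all genes are 6.57% higher and 4.04% lower. At the edge of the minimum level, CNTN5 with 1.00 and 0.524 FPKM in Chinese-origin and Indian-origin striatum was a member and CCSER1 with 0.996 and 0.663 FPKM was not.

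**Figure D1:**
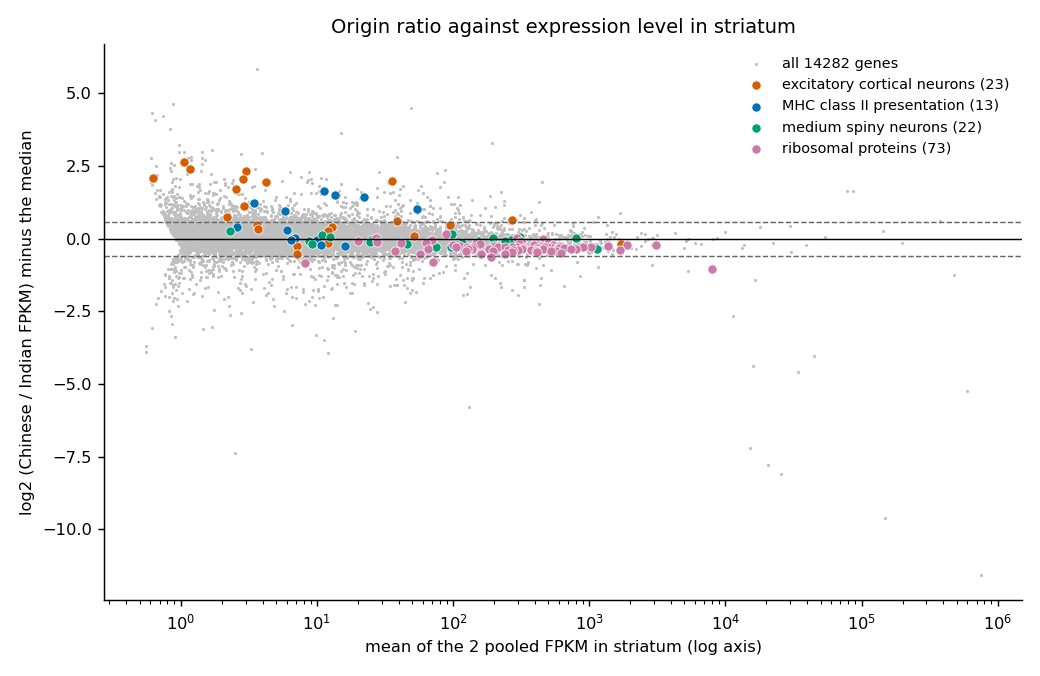
Each point is 1 of 14282 genes, with the mean of the pooled FPKM of both origins on a log axis and the relative log2 ratio on the vertical axis. Dashed lines mark 1.5-fold from the median. Markers of excitatory cortical neurons and genes of MHC class II presentation lie above the line in 13 of 23 and 6 of 13 cases, medium spiny neuron markers lie within both lines, and 9 of the 11 points at or below -4 are genes of the mitochondrial genome.

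The marker genes of medium spiny neurons were at similar relative levels in both origins. Of 22 markers with a ratio, 0 were higher and 0 were lower, and their relative log2 ratios ran from -0.35 to 0.26 with a median of -0.07. PENK was at 894 FPKM in Chinese-origin and 711 in Indian-origin striatum, a relative log2 ratio of 0.02. TAC1, the substance P precursor, was at 1127 and 1158 FPKM, the lowest ratio of the list at -0.35. DRD1 was at 75.6 and 62.5 FPKM, a relative log2 ratio of -0.03. PDE10A, the phosphodiesterase that breaks down cyclic nucleotides in these cells, was at 124 and 110 FPKM, a value of -0.14, and RGS9, which ends dopamine receptor signals, was at 111 and 103 FPKM, a value of -0.21. PTPN5, the striatal phosphatase STEP, was at 353 and 272 FPKM, a value of 0.07. ISL1, a transcription factor of the direct path, had the highest relative ratio at 0.26, with 2.76 and 1.86 FPKM. Unadjusted, 21 of the 22 were above 0, with a median of 0.24.

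Striatal interneuron markers had a median of -0.04 over 16 genes. Of the 16, 3 (18.8%) were higher and 0 lower, beside 6.57% and 4.04% of all genes. The higher genes were CCK, VIP and CALB2, peptides and a calcium-binding protein that cortical neurons carry as well. CALB2 was at 56.7 FPKM in Chinese-origin and 26.5 in Indian-origin striatum, a relative log2 ratio of 0.79, and VIP at 4.19 and 1.46 FPKM, a value of 1.21. CCK is described with the leading genes. The peptides SST and NPY, which mark a class of GABA interneurons, had relative log2 ratios of -0.04 and -0.07. PVALB of fast-spiking interneurons was at 152 FPKM in both origins, a value of -0.31. GAD2, which makes GABA, had a value of -0.13.

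Most marker genes of excitatory neurons of the cortex stood above the striatal median in Chinese-origin monkeys. Of 23 with a ratio, 13 (56.5%) were higher and 0 lower, with a median relative log2 ratio of 0.63, against 6.57% of all genes counted as higher. SLC17A7, which loads glutamate into synaptic vesicles of cortical neurons (chromosome 19 from 55681847 to 55690040), was at 59.6 FPKM in Chinese-origin and 12.2 in Indian-origin striatum, a 4.89-fold difference and a relative log2 ratio of 1.98. Several, but not all, transcription factors of cortical projection neurons on the list were higher too. TBR1, of deep-layer neurons, was at 4.82 and 0.933 FPKM, a relative log2 ratio of 2.06. NEUROD6 was at 6.98 and 1.44 FPKM, NEUROD2 at 4.07 and 1.01, and their relative log2 ratios were 1.97 and 1.71. BHLHE22 and EMX1, the 2 farthest from the median at 2.64 and 2.40, were at only 0.244 and 0.310 FPKM in Indian-origin striatum. NPTX1, a secreted protein of excitatory synapses, was at 21.7 and 6.13 FPKM, a value of 1.51, and RORB of layer 4 at 4.22 and 1.58 FPKM, a value of 1.11.

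CAMK2A, a kinase that medium spiny neurons express as well, was among the higher genes with 354 and 185 FPKM and a relative log2 ratio of 0.63. Other genes of the list were not counted as higher. NRGN, which also has a high level in striatum, was at 1776 and 1621 FPKM, a value of -0.18. SLC17A6, the vesicular glutamate transporter of thalamus and brainstem, was at 6.62 and 7.73 FPKM, a value of -0.53. Among the transcription factors, EMX2 was at 7.32 and 6.97 FPKM, a value of -0.24. LHX2 was at 12.8 and 11.4 FPKM, a value of -0.15, and FEZF2 at 4.60 and 2.67 FPKM, a value of 0.48. The summed FPKM of the 23 genes was 2542 in Chinese-origin striatum and 2024 in Indian-origin striatum. A gene with a ratio is above 0 in both origins by definition. Of the 25 genes of the list that the authors' table holds, with any status, 0 were at 0 in either origin. In PFC the same 23 genes had a median relative log2 ratio of 0.02 with 0 higher and 0 lower, beside 3.45% and 4.01% of all genes there. In CER 16 of them had a median of 0.08 with 1 higher and 1 lower, beside 4.87% and 4.85% of all genes. Some genes of the list are not particular to the cortex. NEUROD2 and BHLHE22 were at 61.6 and 43.4 FPKM in Indian-origin CER, beside 22.8 and 6.73 in Indian-origin PFC, whereas TBR1 and EMX1 were below 1 FPKM in CER. The regions come from the same monkeys and each table was normalised on its own, and whether the origin difference itself differs between regions was not tested.

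**Figure D2:**
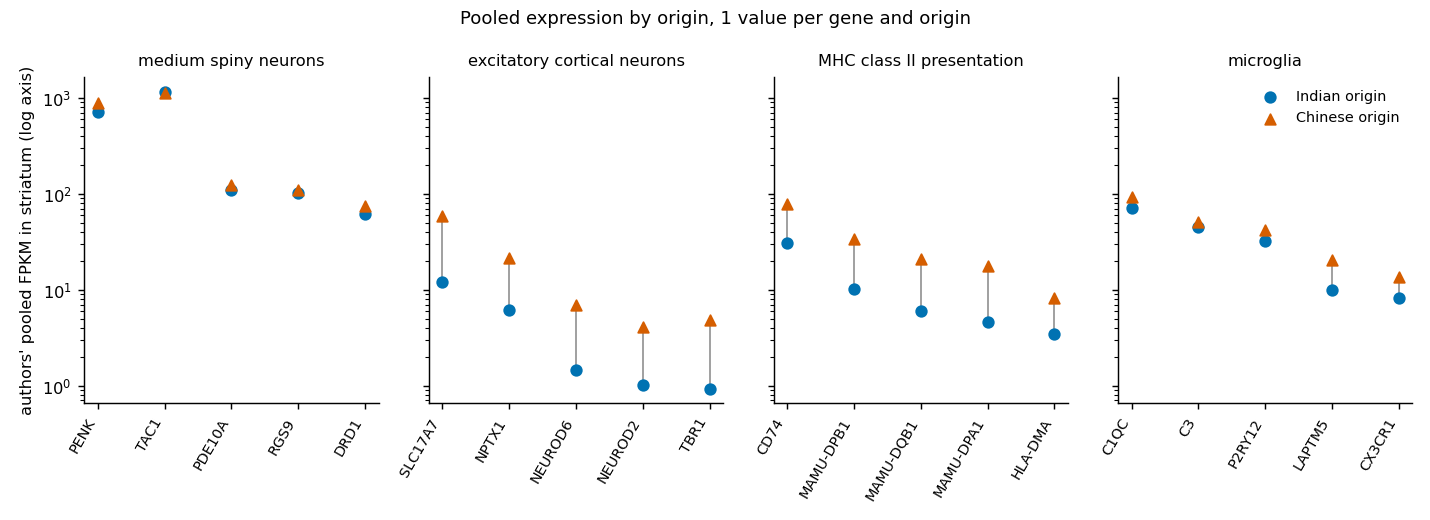
Pooled FPKM on a log axis for 5 genes each of 4 lists, with circles for Indian origin and triangles for Chinese origin, 1 value per gene and origin and no error. The pairs lie close together for medium spiny neuron genes and are widest for SLC17A7, NPTX1, NEUROD6, NEUROD2 and TBR1 and for the class II genes. The genes shown of these last 2 lists are all higher members, and 10 of 23 and 7 of 13 genes of the lists were not higher.

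The genes with the highest ratios were next set beside their level in PFC. By the rule used, the 15 highest ratios among 9335 genes with a symbol and 5 FPKM or more in an origin included 6 small RNAs. Small RNA names are carried by many near-identical copies whose reads cannot be assigned to 1 of them, and 3 of the lowest genes named 5S_rRNA had the same ratio. The 15 highest of the 8735 genes without small RNA names, a choice made after the values were seen, had relative log2 ratios from 1.78 to 5.83. In 14 of these 15 the Indian-origin FPKM was 4 or more times as high in PFC as in striatum, the exception being ATP6V1C2. The Indian-origin striatal value helped to choose these genes, and a low one raises this multiple, so the count is a description only. Over the Chinese-origin striatal FPKM, 6 of the 15 reached 4 times and 13 reached 2 times, and CRHR2 and ATP6V1C2 were lower in PFC than in Chinese-origin striatum. In PFC itself, all 15 lay within 1.5-fold of that region's median ratio, as did most genes, with 3.45% of all genes higher and 4.01% lower there.

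The highest was CRHR2, a receptor for urocortins (chromosome 3 from 95531496 to 95578552). It was at 7.17 FPKM in Chinese-origin and 0.102 in Indian-origin striatum, a relative log2 ratio of 5.83 that rests on a very low Indian-origin value. In PFC it was at 4.99 and 3.77 FPKM, a relative log2 ratio of 0.21. SLC30A3, which loads zinc into glutamate vesicles, was at 5.04 and 0.546 FPKM in striatum, a value of 2.90, and at 42.0 and 35.0 FPKM in PFC. CCK, a neuropeptide abundant in cortex (chromosome 2 from 94333301 to 94338606), was at 141 and 29.5 FPKM in striatum, a value of 1.95, and at 977 and 861 in PFC, where its value was -0.01. C1QL3, a secreted synaptic protein, was at 12.955 and 2.43 FPKM in striatum, a value of 2.11. GRP, gastrin-releasing peptide, was at 5.66 and 1.31 FPKM, a value of 1.80. MPPED1 was at 19.6 and 3.76 FPKM in striatum and at 114 and 93.7 in PFC, with relative log2 ratios of 2.07 and 0.09. RTN4RL2, a relative of the Nogo receptor, and FAM19A1, a secreted protein of brain, had values of 1.97 and 2.39 in striatum and of 0.27 and 0.12 in PFC. The others described here were SLC17A7 and NEUROD6 above, PNMA5 at 1.92, STYK1 at 1.78 and a keratin gene named KRT17 by the authors and KRT16 by the reference, at 2.94. KRT17, RTN4RL2, FAM19A1, STYK1 and ATP6V1C2 share their locus with other genes in the table. ATP6V1C2, a proton pump subunit, was at 10.9 and 1.82 FPKM in striatum and at 1.13 and 0.723 in PFC, with relative log2 ratios of 2.28 and 0.44.

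**Figure D3:**
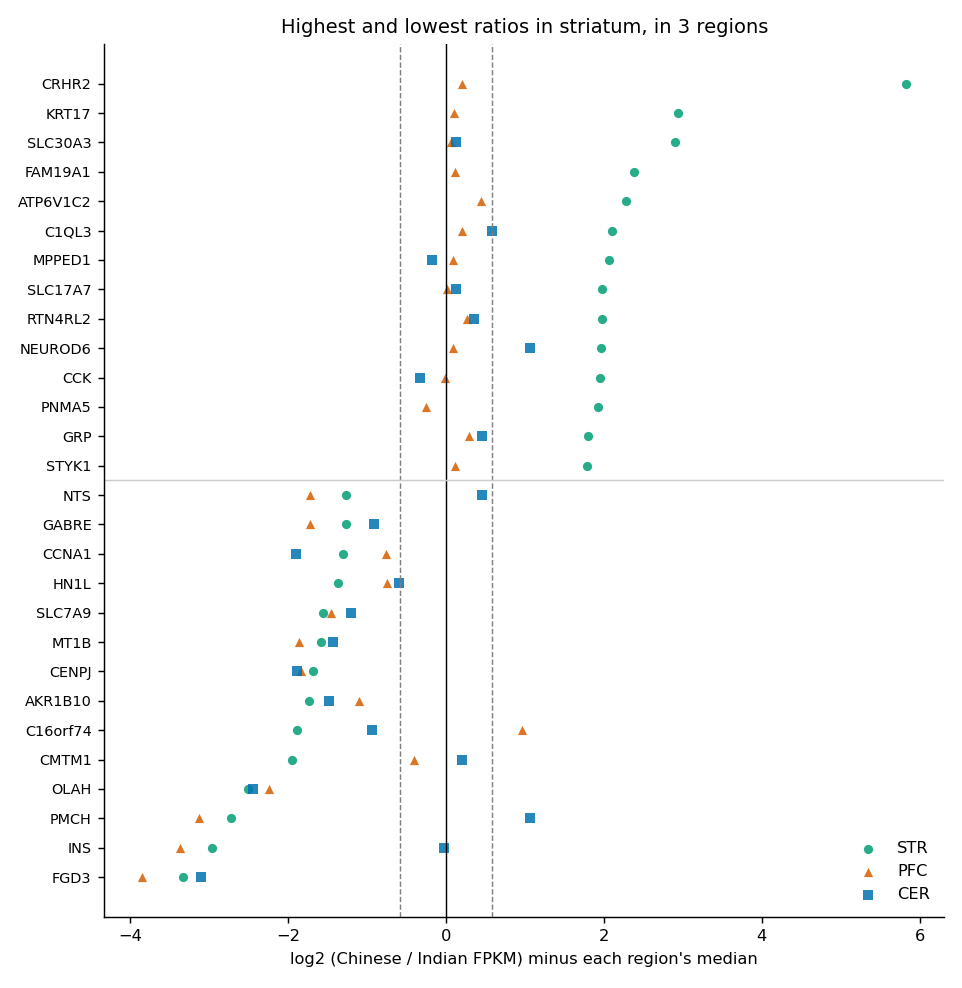
Relative log2 ratios of 14 of the 15 highest and 14 of the 15 lowest genes in striatum without small RNA names, with circles for STR, triangles for PFC and squares for CER, each relative to its own region's median. Genes of under 1 FPKM in both origins of a region, or without status OK there, have no point. The highest genes lie within 1.5-fold of the median in PFC, as most genes do, and most of the lowest are lower in PFC as well.

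The level in PFC was then set beside the ratio over all genes with a symbol other than that of a small RNA. Of the 604 higher genes, 297 (49.2%) had an Indian-origin FPKM at least 2 times as high in PFC as in striatum, beside 866 of all 11308 (7.66%) and 9 of the 241 lower genes (3.73%). Of 5187 genes with a PFC level 1 to 2 times that of striatum, 3.14% were higher, and their median relative log2 ratio was 0.06. From 2 to 4 times it was 21.4% of 625 genes, and from 4 to 8 times 55.2% of 165 genes with a median of 0.64. Above 8 times, 72 of 76 genes (94.7%) were higher, with a median of 1.32. The Indian-origin striatal FPKM enters both quantities, so a low value raises both. With the Chinese-origin striatal FPKM in the denominator, where the shared value acts the other way, the shares were 4.49% of 2760, 32.0% of 347 and 67.9% of 53 genes, and only 2 genes were left above 8 times. In that form the classes of genes with the lowest PFC levels, under 1/8 and from 1/8 to 1/4 of that of striatum, held 17.1% and 24.8% of higher genes. Classes by the level in CER gave smaller shares, with 30.9% of 162 genes higher above 8 times the Indian-origin striatal level and 21.6% of 97 with the Chinese-origin level. The part that cortical transcripts in the striatal samples play in these ratios was not tested.

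**Figure D4:**
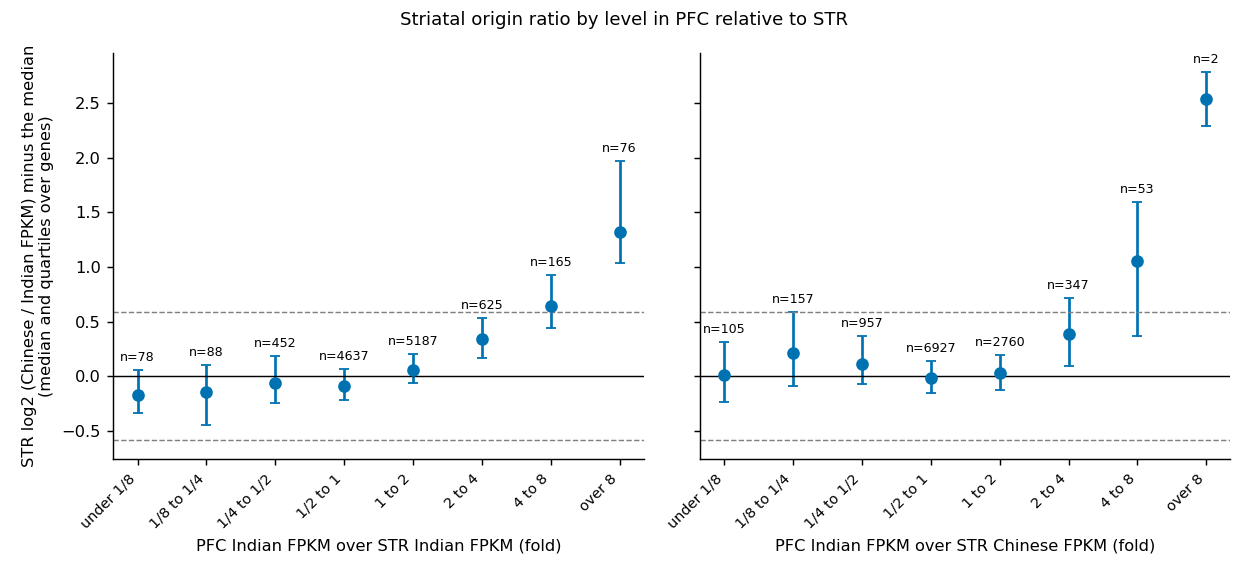
Genes in classes of PFC Indian-origin FPKM over STR FPKM of Indian origin (left) or Chinese origin (right), with the median relative log2 ratio in striatum as a point, its quartiles over genes as bars, and the number of genes. Medians pass the upper dashed line of 1.5-fold from 4 times upward on both sides, where the last class on the right holds 2 genes.

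Genes of synaptic transmission were above the median in the same samples. Of 32 genes of synaptic vesicle release, 30 lay above the median of all genes, and their median relative log2 ratio was 0.30. Of the 32, 7 (21.9%) were higher and 0 lower, beside 6.57% and 4.04% of all genes. STX1A, the plasma membrane SNARE syntaxin, was at 58.4 FPKM in Chinese-origin and 24.5 in Indian-origin striatum, a value of 0.94. RPH3A, which binds RAB3 on vesicles, was at 43.0 and 18.2 FPKM, a value of 0.93. The calcium sensor DOC2A had a value of 0.80 and the active zone scaffold BSN one of 0.76. The abundant VAMP2 and NSF were at 0.23 and 0.10. In PFC the list had a median of 0.02 and in CER one of 0.05, with 0 higher genes in both. Of the 32 genes, 19 had a PFC level at least 2 times that of striatum, and among the other 13 the median was 0.20 and 1 was higher. The Indian-origin striatal FPKM enters both this choice and the ratio, so a loss of higher genes is partly built in.

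Potassium channel genes numbered 59 with a ratio, and their median was 0.22. Of the 59, 12 (20.3%) were higher and 2 (3.39%) lower, beside 6.57% and 4.04% of all genes. KCNS1, a silent modifier subunit of voltage-gated channels, was at 1.46 FPKM in Chinese-origin and 0.287 in Indian-origin striatum, a value of 2.04, and at 35.6 FPKM in Indian-origin PFC. KCNG1, another modifier subunit, was at 11.4 and 4.58 FPKM, a value of 1.01. KCNMB1, the smooth muscle subunit of calcium-activated channels, had the same value with 4.81 and 1.92 FPKM and was higher in PFC at 1.06 as well. The more abundant KCNMB4, KCNAB1 and KCNJ10 had values from -0.06 to 0.04. Centred within level classes, 5 potassium channel genes were higher and 3 lower. Without genes of at least 2 times the level in PFC, 3 of 34 were higher, where the choice again shares the Indian-origin striatal FPKM with the ratio.

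Ionotropic receptors of glutamate and GABA had a median of 0.13 over 21 genes, with 3 higher and 1 lower. GRIN3A, a modulatory NMDA receptor subunit, was at 3.64 and 1.36 FPKM, a relative log2 ratio of 1.12. GABRE, the epsilon subunit of GABA-A receptors, was the lower one, with 6.10 FPKM in Chinese-origin and 11.9 in Indian-origin striatum, a value of -1.27, and it was at -1.71 in PFC and -0.92 in CER. Immediate early genes, transcribed within minutes of neuronal activity, all lay above the median, with 14 of 14, a median of 0.29 and 3 higher. FOSB had a value of 0.75, NR4A2 one of 0.65 and FOSL2 one of 0.64. The more abundant EGR1 and JUNB were at 0.09 and 0.02. In PFC these 14 genes had a median of 0.36 with 0 higher.

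MHC class II molecules present peptides from outside the cell to helper T cells. In the brain they are carried mainly by microglia and by macrophages around vessels. Of 13 genes of this path with a ratio, 6 (46.2%) were higher and 0 lower, beside 6.57% and 4.04% of all genes. Their median was 0.41. MAMU-DPA1 was at 17.8 FPKM in Chinese-origin and 4.66 in Indian-origin striatum, a relative log2 ratio of 1.63. MAMU-DPB1, its partner chain, was at 34.1 and 10.3 FPKM, a value of 1.42. MAMU-DQB1, which the reference calls MAMU-DRB1, was at 21.2 and 5.97 FPKM, a value of 1.52. CD74, the invariant chain that guides class II molecules, was at 77.8 and 30.8 FPKM, a value of 1.03. HLA-DMA, which loads peptides, was at 8.24 and 3.42 FPKM, a value of 0.96, and MAMU-DOA, its modulator, was at 5.13 and 1.78 FPKM, a value of 1.22. The class II genes are alike in sequence, so reads of 50 bases could be split between them and the values of single genes are uncertain.

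The regulators and enzymes of the same path were not among the higher genes. RFX5, RFXANK and RFXAP, which bind class II promoters, had relative log2 ratios of -0.22, -0.26 and -0.05. CTSS, the protease that trims the invariant chain, was at -0.03, and MAMU-DOB at 0.02. CIITA, the master activator, was at 0.371 and 0.201 FPKM and was not a member. MAMU-DRA was listed at 0 in both origins. The 13 genes summed to 228 FPKM in Chinese-origin striatum and 111 FPKM in Indian-origin striatum. In PFC 4 of the 13 were higher and 1 lower with a median of 0.20, beside 3.45% and 4.01% of all genes there. In CER 3 of 12 were higher with a median of 0.09, beside 4.87% of all genes. CD74 was at 0.88 in PFC and 0.43 in CER, and MAMU-DOA at -2.06 in PFC.

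The microglia list as a whole was near the median in striatum. Of 21 genes, 1 was higher and 0 lower, the median was 0.06, and the genes summed to 784 FPKM in Chinese-origin striatum and 647 FPKM in Indian-origin striatum. The higher gene was LAPTM5, a lysosomal protein of blood-derived cells, at 20.5 and 9.86 FPKM, a value of 0.74. CX3CR1, the fractalkine receptor, was at 13.6 and 8.22 FPKM, a value of 0.42, and P2RY12, a purine receptor of resting microglia, was at 42.4 and 32.0 FPKM, a value of 0.10. C1QC and C3, of the complement system, had values of 0.04 and -0.13. In PFC the list had a median of 0.36 with 4 of 20 higher, beside 3.45% of all genes there. In CER its median was -0.06 with 1 of 18 higher, beside 4.87% of all genes. Whether the class II values follow the number of microglia was not tested.

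Of 11 markers of perivascular macrophages and monocytes, 2 were higher and 1 lower, with a median of 0.19. With any status the median of 15 genes was -0.02, and with a pseudocount of 0.1 the lower call was lost. CD4, the coreceptor that macrophages share with helper T cells (chromosome 11 from 6967963 to 7001757), was at 12.01 FPKM in Chinese-origin and 3.35 in Indian-origin striatum, a relative log2 ratio of 1.53. In PFC and CER its values were 1.69 and 0.97. SIGLEC1, a sialic acid receptor of macrophages, was at 1.47 and 0.564 FPKM, a value of 1.07, and LYVE1, a hyaluronan receptor, was at 1.21 and 1.47 FPKM, a value of -0.59. Of 6 lymphocyte genes with a ratio, CD8A and CD8B, the chains of the cytotoxic T cell coreceptor, were higher at 1.18 and 2.82. CD8B was at only 0.246 FPKM in Indian-origin striatum. The T cell receptor chains CD3E, CD3D and CD3G had values of -0.30, -0.38 and -0.57, and the B cell gene MS4A1 was below 1 FPKM in both origins. The summed FPKM of the 6 lymphocyte genes was 21.3 and 16.1.

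CXCL12, a chemokine that binds CXCR4, was the only one of 9 chemokine and receptor genes counted as higher, with 9.76 and 3.03 FPKM and a relative log2 ratio of 1.38. CCR1 was at 0.34 and CXCL16 at 0.39. MHC class I genes had a median of 0.16 over 10 genes with 0 higher and 0 lower. B2M, the light chain shared by class I molecules, was at 909 and 642 FPKM, a value of 0.19. The interferon response list had a median of -0.01 over 24 genes, with ISG20 at 1.58 and OAS2 at 0.96 as the higher genes and 0 lower. IRF9, which carries the interferon signal to the nucleus, was at -0.06.

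Astrocyte and myelin genes were near the median as groups, and oligodendrocyte precursor genes lay mostly above it. Astrocyte genes had a median of 0.01 over 14 genes with 0 higher and 0 lower, and GFAP, the intermediate filament of astrocytes, was at 877 and 607 FPKM, a value of 0.22. S100B was at 718 and 784 FPKM, a value of -0.44. Oligodendrocyte and myelin genes had a median of -0.08 over 20 genes, and the 1 higher gene was ASPA, which splits N-acetylaspartate, at 81.5 and 43.8 FPKM, a value of 0.59. Of 12 oligodendrocyte precursor genes, 8 lay above the median of all genes, and their median was 0.21. TNR, an extracellular matrix protein of these cells, was higher at 0.78.

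Vessel-associated genes lay mostly above the median. Of 19 endothelial and blood-brain barrier genes, 16 lay above it, 2 were higher and 0 lower, with a median of 0.21. The higher genes were CAV1, the caveolar coat protein, at 0.74 and the amino acid transporter SLC7A5 at 0.72. The glucose transporter SLC2A1 was at 0.20 and the tight junction protein CLDN5 at 0.15. Mural cell and fibroblast genes had a median of 0.28 over 14 genes, with the matrix genes COL3A1 at 0.89 and LUM at 0.79 higher and the organic anion transporter SLC22A6 lower at -0.85. Of 47 extracellular matrix genes, 9 (19.1%) were higher and 0 lower, beside 6.57% and 4.04% of all genes, with a median of 0.13. At a minimum of 5 FPKM 2 of 25 were higher with a median of 0.0079, and without genes of at least 2 times the level in PFC 3 of 38 were higher. The latter choice shares the Indian-origin striatal FPKM with the ratio. COL6A1 was at 4.30 and 1.48 FPKM, a value of 1.23, and COL24A1 at 2.55 and 0.862 FPKM. The abundant SPARCL1 was at 1122 and 1055 FPKM, a value of -0.22. Of 6 ependymal and choroid plexus genes, TTR and FOLR1 were lower and SLC4A5 higher. TTR, the thyroid hormone carrier of the choroid plexus, was at 25.8 and 40.1 FPKM, a value of -0.95, and at -2.03 in PFC and -1.78 in CER.

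**Figure D5:**
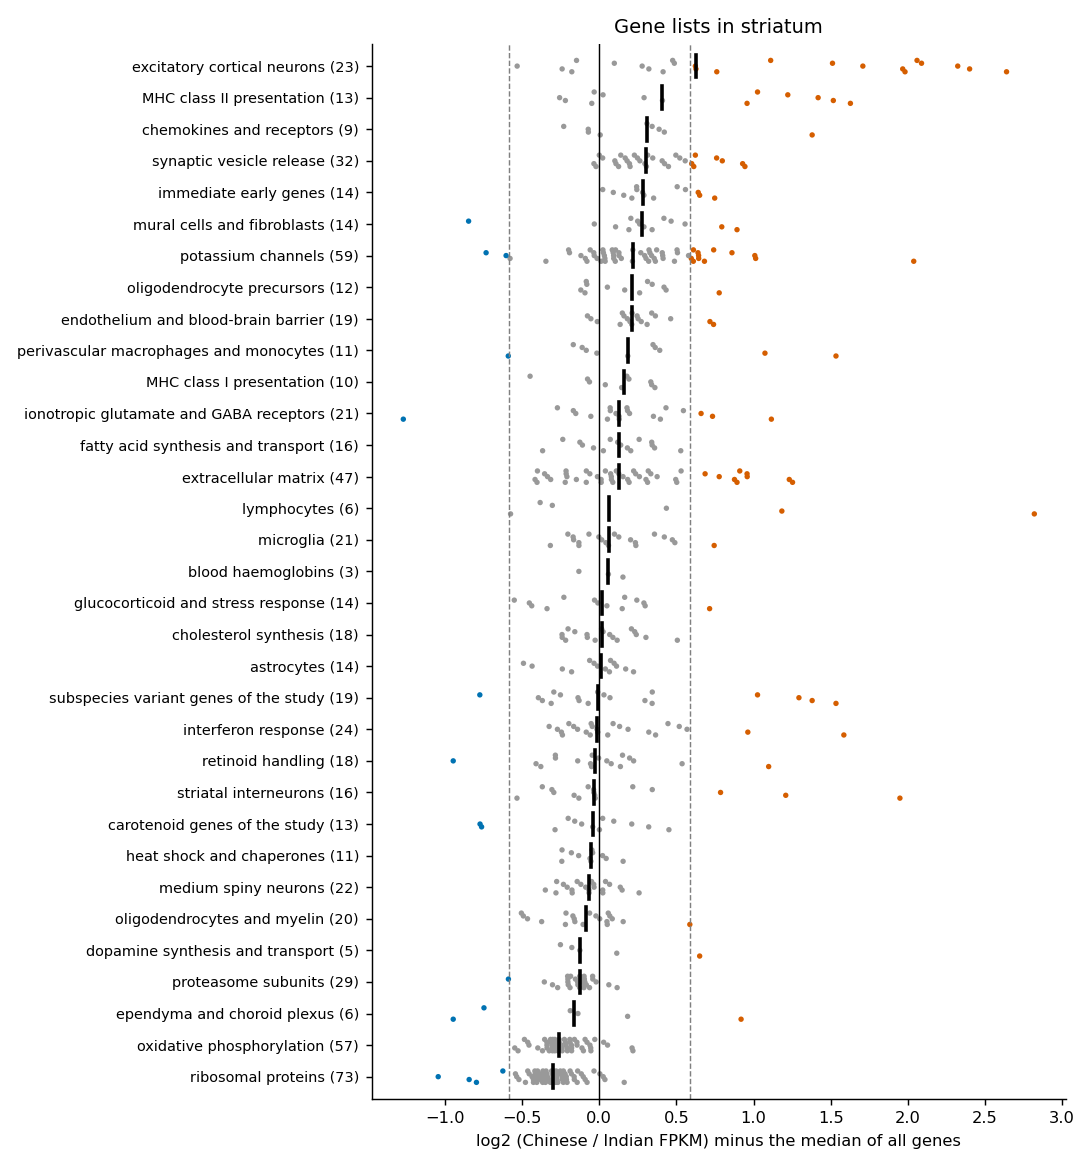
Relative log2 ratio of each measured member of 33 gene lists in striatum, with the number of genes in parentheses, a black bar at each list's median, orange points for higher genes, blue points for lower genes and dashed lines at 1.5-fold. Excitatory cortical neuron markers have the highest median (0.63) and ribosomal proteins the lowest (-0.30).

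Among the genes with the lowest ratios, many had low ratios in all 3 regions. Of the 15 lowest genes without small RNA names, 12 were lower in PFC, 10 in CER and 9 in both. Of all genes, 4.01% were lower in PFC and 4.85% in CER, and the share lower in both was not counted. FGD3, an exchange factor for the GTPase CDC42 (chromosome 15 from 104708619 to 104799051), was at 2.18 FPKM in Chinese-origin and 17.6 in Indian-origin striatum, a relative log2 ratio of -3.32, and its values were -3.84 in PFC and -3.11 in CER. OLAH, a thioesterase that releases medium-chain fatty acids (chromosome 9 from 15287002 to 15303150), was at 9.87 and 45.3 FPKM, a value of -2.51, with -2.24 in PFC and -2.44 in CER. CENPJ, a centriole protein, was at 2.28 and 5.90 FPKM, a value of -1.68, with -1.84 and -1.88. The cystine transporter subunit SLC7A9 and the aldo-keto reductase AKR1B10 had values of -1.56 and -1.74 in striatum and were lower in both other regions, but each shares its locus with another gene in the table.

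Other genes among the lowest were lower in PFC but not in CER. PMCH, the precursor of melanin-concentrating hormone of the hypothalamus, was at 4.20 and 22.3 FPKM, a relative log2 ratio of -2.72, with -3.13 in PFC and 1.06 in CER. INS, insulin, was at 1.79 and 11.3 FPKM, a value of -2.97, with -3.37 in PFC and -0.02 in CER. NTS, neurotensin, was at 7.10 and 13.7 FPKM, a value of -1.26, with -1.72 in PFC and 0.46 in CER. C16orf74 was lower in striatum at -1.88 and was at 0.96 in PFC.

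Over all genes with a symbol other than that of a small RNA, the genes counted in striatum were counted again in the other regions to the following extent. Of 192 lower genes with a ratio in PFC, 90 (46.9%) were lower there too, which is 45.9% of the PFC list. Of 512 higher genes, 94 (18.4%) were higher in PFC, which is 47.7% of the PFC list. Of the 10779 genes measured in both regions, 1.82% were lower and 1.83% higher in PFC. In CER the counts were 80 of 186 (43.0%) for lower and 97 of 415 (23.4%) for higher genes. Of the 10064 genes measured in striatum and CER, 2.43% were lower and 2.34% higher in CER. Across all 3 regions 55 of 171 genes (32.2%) were lower and 48 of 383 (12.5%) were higher, with no share over all genes counted beside them. The difference between these shares was not tested, and the 3 regions share the monkeys.

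Genes of protein synthesis and of energy metabolism lay below the median when relative to all genes and at about 1 when unadjusted. Of 73 ribosomal protein genes, 69 lay below the median of all genes, with a median relative log2 ratio of -0.30, and 0 were higher and 4 lower, whereas the unadjusted median was 0.0093 with 40 of 73 above 0. The abundant RPL38 and RPS21 were both at -0.21 and RPL30 was at -0.41. Centred within classes of expression level the list's median was -0.17. The farthest value, -1.04, belonged to a feature of 93 bases on chromosome 7 named RPL13A with 6042 and 10049 FPKM, while the RPL13A gene on chromosome 19 was at 304 and 289 FPKM, a value of -0.24. In PFC and CER the list had medians of -0.03 and -0.11. Of 57 nuclear genes of oxidative phosphorylation, 53 lay below the median, with a median relative log2 ratio of -0.26, 0 higher and 0 lower, and an unadjusted median of 0.05. NDUFA4 and COX6C, abundant small subunits, had relative values of -0.32 and -0.29. Of the 2 loci named NDUFA1 with a ratio, the more abundant, on chromosome 1, was at 0.22 and that on chromosome X at -1.02. Proteasome subunits had a relative median of -0.13 and an unadjusted one of 0.18 over 29 genes, with PSMD5 as the 1 lower gene at -0.59.

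The genes that the study chose for carotenoid handling were close to the median. Of 13 with a ratio, 0 were higher and 2 lower, with a median of -0.04, beside 6.57% and 4.04% of all genes. Without subtraction of the median, 2 were higher, BCO2 and FADS1, and 0 were lower. BCO2, the mitochondrial enzyme that cleaves xanthophylls, was at 14.0 and 8.28 FPKM, the highest relative value of the list at 0.45, and had 0.52 in PFC and 0.56 in CER. FADS1, a desaturase of polyunsaturated fatty acids, had a value of 0.32, ABCA1, which exports cholesterol, 0.21, FADS2 0.09, NPC1L1 0.02, ELOVL5 0.00, SCARB1 -0.04, GSTP1 -0.11, ELOVL4 -0.16, ELOVL2 -0.20 and ALDH3A2 -0.29. RPE65, the retinoid isomerase, was lower at 5.38 and 7.37 FPKM, a value of -0.76, and LIPC, hepatic lipase, was lower at 0.848 and 1.17 FPKM, a value of -0.77. STARD3, a xanthophyll binding protein, has status FAIL with 27.7 and 21.1 FPKM, and ABCG5 and BCMO1 were below 1 FPKM in both origins.

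Of 19 genes with a ratio among those chosen by the study for known variants between the origins, 4 were higher and 1 lower, with a median of -0.01. Besides CD4, CXCL12 and CD74, PYY was higher at 1.29 with 1.58 and 0.520 FPKM, and the death receptor FAS was lower at -0.77 with 0.764 and 1.05 FPKM. NOS1, the neuronal nitric oxide synthase, had a value of 0.34, CCR1 0.34, ADRBK2 0.30, SASH1 0.07, CD44 0.03, SIRT1 -0.01, NPY -0.07, INHBB -0.13, HTATSF1 -0.14, MAOA -0.25, SLC5A7 -0.29, BCHE -0.31, STAR -0.37 and LTBR -0.39.

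Lipid, retinoid and stress genes were near the median as groups. Retinoid handling had a median of -0.02 over 18 genes, with RBP4, the plasma retinol carrier, higher at 297 and 112 FPKM, a value of 1.10, and TTR lower as given above. RXRG, a retinoid receptor of striatal neurons, was at 66.4 and 71.2 FPKM, a value of -0.41. Fatty acid synthesis and transport had a median of 0.13 over 16 genes and cholesterol synthesis one of 0.02 over 18, both with 0 higher and 0 lower. FADS3 was at 0.53 and SCD, the stearoyl desaturase, at 0.36, and DHCR7 of the last step of cholesterol synthesis at 0.51. Glucocorticoid and stress response genes had a median of 0.02 over 14 with CDKN1A, a cell cycle inhibitor, higher at 0.72. Heat shock genes had a median of -0.05 over 11 with 0 higher and 0 lower. Haemoglobin genes, which report blood in the sample, had a median of 0.06 over 3 genes, with HBB at 80.9 and 62.7 FPKM. Of 5 genes of dopamine synthesis and transport with a ratio, NR4A2 was higher as given above, and TH, the rate-limiting enzyme of dopamine synthesis, was at 0.942 and 0.719 FPKM, below the minimum.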

How the data were processed

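Striatum, PFC and CER of 3 monkeys per origin were sequenced (single-end, 50 bases). Quality control by the authors used FastQC, alignment to mmul1 used TopHat, and expression was estimated with Cuffdiff (version 0.0.5 in the submitters' processing notes). The deposited FPKM values are scaled by the authors for exon length and library size and pooled over 3 monkeys, 1 per gene and origin, with no depth in the files. The tables also hold the authors' own comparison (fold changes, test statistics, p-values, q-values), which was not used except for the status that chooses rows. Some genes are not reported here.

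The incomplete repeated last row was dropped, leaving 30245 genes. Symbols came from the file for 22264 and from the reference by identifier for 749, and 27 symbols turned into dates were not used. In striatum 2143 genes of 1 or more FPKM without status OK were left out. Log2 ratios had no pseudocount. The unadjusted median was subtracted, and genes 1.5-fold from it were counted. A symbol with several loci entered a list once, at its highest mean FPKM. The locus is that of the Cuffdiff bundle, shared by 7680 rows, so coordinates (mmul1, 1-based) are given only for unshared loci or for a named feature.

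The members and 33 lists were chosen with earlier results of these data known. Genes named were the 15 highest and 15 lowest ratios with 5 FPKM or more, repeated without small RNA names, up to 4 members per list farthest from the median and up to 4 with the highest FPKM, the study's own lists and striatal markers, plus higher or lower members of a list and a few others chosen after their values were seen. The procedure was tested on simulated data. Alternatives were pseudocounts of 0.1 and 1, other FPKM minimums, other centring, other folds, any status, summed loci, and genes left out for their level in PFC. Python 3.11.15, numpy 2.4.6, pandas 2.3.3 and matplotlib 3.10.9 were used.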

Additional observations from a re-analysis of the deposited data

How the results depend on the processing

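No paired analysis was possible because the deposited tables hold 1 pooled FPKM per origin, and for the same reason no monkey could be left out in turn. The median log2 ratio of all genes stayed between 0.28 and 0.31 under other pseudocounts, minimums, statuses and loci, and was 0.32 over genes with a symbol other than that of a small RNA, a setting added after seeing the data. The 938 higher and 577 lower genes became 448 and 321 at a minimum of 5 FPKM, 2644 and 320 without subtraction of the median, and 1872 and 1443 with any status and any FPKM above 0. They became 350 and 279 at 2-fold, 2236 and 1662 at a looser limit of 0.32 on the log2 scale, and 573 and 252 without small RNAs and unnamed genes. Higher genes numbered 594 without genes of at least 2 times the level in PFC, and lower genes 887 with a pseudocount of 0.1, which gives a ratio to genes at 0 in 1 origin. Lists were compared with 0.5 of the interquartile range of their members. That range is a spread between genes and does not measure the spread between monkeys. Without genes of at least 2 times the level in PFC, 5 excitatory cortical neuron genes were left, with a median of -0.16 and 0 higher, while MHC class II presentation kept 13 genes, 6 higher and a median of 0.43. The Indian-origin striatal FPKM enters both this filter and the ratio, so the filter tends to take out genes with a low value there. A loss of higher genes is thus partly built in, and these counts are a description only. Without subtraction of the median, which adds 0.31 to every gene, the median of 13 of 33 lists turned from below to above 0, among them ribosomal proteins (0.0093), oxidative phosphorylation (0.050), proteasome subunits (0.18) and ependyma and choroid plexus (0.15). The same setting gave 0.24 for medium spiny neurons, 0.27 for striatal interneurons, 0.18 for dopamine synthesis, 0.47 for MHC class I, 0.37 for microglia, 0.49 for perivascular macrophages, 0.62 for chemokines, 0.30 for interferon response, 0.32 for astrocytes and 0.23 for oligodendrocytes. It gave 0.52 for oligodendrocyte precursors, 0.52 for endothelium, 0.59 for mural cells, 0.59 for immediate early genes, 0.33 for stress response, 0.26 for heat shock, 0.37 for haemoglobins, 0.27 for carotenoid genes, 0.30 for subspecies variant genes and 0.28 for retinoid handling. It gave 0.44 for fatty acid synthesis, 0.33 for cholesterol synthesis, 0.61 for synaptic vesicle release, 0.44 for ionotropic receptors, 0.53 for potassium channels and 0.44 for extracellular matrix. Centred in level classes, ribosomal proteins were at -0.17, oxidative phosphorylation at -0.13 and proteasome subunits at -0.045. Chemokines were at 0.060 with a pseudocount of 1 and at 0.061 with any status, and haemoglobins at -0.039 with no minimum and -0.036 with any status, where 4 lists turned sign, perivascular macrophages (-0.015) included. Of 275 named genes, 1 symbol reversed, 5S_rRNA, at 0.19 with its loci summed. With a pseudocount of 1, 56 of the 275 moved by more than 0.18, and 7 did with 0.1. The cause of these changes was not tested where the setting itself does not give it.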

Other observations

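Genes of the mitochondrial genome spread more widely than any list. Of 22 with a ratio, 13 were lower and 3 higher, with relative log2 ratios from -11.57 to 1.65, and most have no symbol in the table. ND5, a subunit of respiratory complex I, was at 3883 FPKM in Chinese-origin and 6745 in Indian-origin striatum, a relative log2 ratio of -1.11, with -0.87 in PFC and -0.80 in CER. ND3 and ND6 of the same complex had striatal values of -0.45 and -0.21 and were not counted as lower. The 38 mitochondrial genes summed to 1780200 FPKM in Chinese-origin striatum and 4833000 FPKM in Indian-origin striatum. All other genes summed to 1073900 and 915700. The mitochondrial sums rest largely on short features with no symbol, 1 of them at 612 and 1500600 FPKM and another at 37628 and 1145200. They are therefore no measure of the mitochondrial genes with a symbol. Of the 38, 14 have the status HIDATA, and the part of these sums in the shift of all genes was not tested.

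GUSB and KLK8, outside the lists, were higher in all 3 regions, and GAL was not. All were chosen here after their values were seen. GUSB, a lysosomal glucuronidase often used as a reference gene, was at 10.8 and 2.90 FPKM in striatum, a relative log2 ratio of 1.58, with 1.33 in PFC and 1.77 in CER, and shares its locus with another gene in the table. KLK8, a serine protease of neurons, was at 7.73 and 2.32 FPKM, a value of 1.43, with 0.81 in PFC and 1.28 in CER. GAL, the neuropeptide galanin, was at 22.2 and 6.51 FPKM in striatum, a value of 1.46, with -1.05 in PFC and -0.51 in CER.

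Of the 16 members with a symbol other than that of a small RNA that were listed at 0 in 1 origin, MYH16, a myosin heavy chain of jaw muscle, was at 72.03 FPKM in Chinese-origin and listed at 0 in Indian-origin striatum. OCLM was at 7.26 FPKM in Chinese-origin striatum and NCMAP at 2.64 FPKM in Indian-origin striatum, each listed at 0 in the other. Shares of higher genes by chromosome cover only genes with a symbol other than that of a small RNA. Of all 11308 such genes, 604 were higher. The shares ran from 4.13% of 533 genes on chromosome 20 to 7.88% of 444 on chromosome 15.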
